A study of Mus musculus with 8 samples.

Results

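Of the 6444 sites in the ASH2L peak list, 801 (12.4%) were distal intronic sites without an AP-1 motif, and these are the sites described here. A site was taken when its centre lay in an intron, farther than 3 kb from every annotated transcription start site (TSS), when it overlapped no computed CpG island, and when its central 200 bp lacked the 7-base AP-1 consensus TGANTCA with C or G at N. Chromosome 15 and the part of chromosome 10 from 100 to 130 Mb were left out, where 150 further sites met the rule. The steps left 6428 sites on the assembled chromosomes, 5763 outside the coordinates left out, 2007 distal, 978 of them intronic, 914 of those free of islands, and 801 without AP-1. The member closest to the TSS limit lay 3005 bp from a TSS, and the nearest intronic site kept out by it lay at 2994 bp. The annotation used here was GENCODE, and 20 of the 801 members lay within 1 kb of a TSS that RefSeq adds.

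The list came from immortalised mouse embryo fibroblasts that carry floxed Ash2l alleles and a tamoxifen-inducible Cre, lost exon 4 of Ash2l after 4-hydroxytamoxifen, and depend on a lentiviral, HA-tagged human ASH2L fused to an FKBP12 degron. The lines were individual clones. The 8 libraries were ASH2L ChIP and input from cells without dTAG and from cells given dTAG, a compound that brings the fusion protein to Cereblon, for 1 h, with 2 libraries in each group. The labels name the ChIP antibody as Ash2l and the methods of the study name the HA tag. The table analysed here holds only the chromosome, start and end of each site, identified over all libraries together, so neither a change after dTAG nor a spread between replicates could be computed, and depth per site is unknown.

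ASH2L is a core subunit of the KMT2 (COMPASS) complexes, which methylate lysine 4 of histone H3. The complexes with KMT2A, KMT2B, SET1A or SET1B act mainly at promoters, where trimethylation is found, while those with KMT2C and KMT2D place monomethylation at enhancers. Many fibroblast enhancers lie in introns and carry motifs of AP-1, the JUN and FOS dimer. TEAD proteins, which bind DNA for the coactivators YAP and TAZ, often bind beside AP-1, and RUNX proteins and the bHLH factors that bind E-boxes are other usual occupants of such enhancers. The members are the intronic sites at which the AP-1 consensus was not found in the centre.

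Sequences behind the motif results are printed here from the RefSeq genome GRCm38.p6 (mm10), each 120 bases, 5′ to 3′ on the strand that reads the match in capitals. Only the match nearest to the centre is in capitals, and other matches stay in lower case, such as a further GGAATGT in Sh3pxd2b. The first set shows the TEAD motif GGAATGT in the members where it lay nearest to the centre, all in introns of protein-coding genes.
Sh3pxd2b, intron 1 of 12, chr11:32359718-32359837, plus strand: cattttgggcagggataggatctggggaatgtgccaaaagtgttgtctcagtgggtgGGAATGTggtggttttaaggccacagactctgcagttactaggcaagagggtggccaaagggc
Prkci, intron 2 of 17, chr3:31022916-31023035, plus strand: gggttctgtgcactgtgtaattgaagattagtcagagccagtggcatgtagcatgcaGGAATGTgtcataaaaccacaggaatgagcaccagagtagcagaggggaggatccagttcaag
Parp8, intron 3 of 26, chr13:117020891-117021010, plus strand: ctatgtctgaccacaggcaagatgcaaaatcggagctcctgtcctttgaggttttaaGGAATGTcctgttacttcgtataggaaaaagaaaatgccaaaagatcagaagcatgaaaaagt

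The second set shows the E-box CAGCTG and the RUNX motif TGTGGTT, the motifs with the next highest ratios to intron among those in at least 10 members, in the same way.
Terb1, E-box, intron 3 of 19, chr8:104501750-104501869, plus strand: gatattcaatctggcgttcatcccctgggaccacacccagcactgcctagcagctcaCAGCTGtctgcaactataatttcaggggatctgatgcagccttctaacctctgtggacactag
Pappa2, E-box, intron 20 of 21, chr1:158733360-158733479, plus strand: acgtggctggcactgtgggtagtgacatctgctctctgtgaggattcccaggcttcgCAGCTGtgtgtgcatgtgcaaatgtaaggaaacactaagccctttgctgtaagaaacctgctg
Rbpj, RUNX, intron 1 of 6, chr5:53490061-53490180, minus strand: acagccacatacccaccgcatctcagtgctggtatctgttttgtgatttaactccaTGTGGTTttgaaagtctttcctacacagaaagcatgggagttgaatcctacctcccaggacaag
Phldb2, RUNX, intron 1 of 15, chr16:45889763-45889882, minus strand: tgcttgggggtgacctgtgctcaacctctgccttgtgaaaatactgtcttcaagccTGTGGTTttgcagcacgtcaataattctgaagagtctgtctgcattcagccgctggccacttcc

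The members were compared with 2 other classes of the list, 766 intergenic sites that met the same conditions outside genes and 113 distal intronic sites that held the AP-1 consensus. They were also set beside the eligible intron, meaning all intronic sequence that the rule allows. This came to 823 Mb, in which 1 member occurred per 1027 kb. Of its 4068185 adjacent windows of 200 bp, 3935653 lacked AP-1 and served for the shares of motifs and words. The remaining 3.26% held the AP-1 consensus, against 12.4% of the 914 eligible intronic sites. This last share fixed the size of the classes and is given as a description. Sites are not replicates, so each test between classes describes this list and not repeated experiments, and all were two-sided Fisher's exact tests with Benjamini-Hochberg adjustment over the features or motifs of the comparison.

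Of the motifs present in at least 10 members, TEAD had the highest ratio to eligible intron. Each motif was searched on both strands of the central 200 bp, and a match is a description of the sequence and not of binding. TEAD was found in 61 members, 7.62% (95% Wilson interval 5.97 to 9.66), against 2.73% of eligible windows, a ratio of 2.78. In the windows centred 1 kb to either side of the same members it was found in 2.06% of 1602 windows. The E-box CAGCTG, bound by bHLH factors such as TWIST and MYOD, was found in 92 members, 11.5%, against 7.31% of eligible windows. The RUNX motif was found in 60 members, 7.49%, against 4.82%. The HOX-PBX motif TGATTNAT was found in 43 members, 5.37%, against 3.69%, and the GC-box GGGGNGGGG of SP and KLF factors in 34, 4.24%, against 3.40%. Against the windows 1 kb away the ratio was 3.70 for TEAD, 1.82 for RUNX, 1.76 for HOX-PBX, 1.38 for CAGCTG and 1.06 for the GC-box. These 5 had a ratio to eligible windows over 1.2, and the other 5 motifs found in at least 10 members, namely AGATAAG of GATA factors, TGTTTAC of FOX factors, CNGGAAGT of ETS factors, the E-box CACGTG and ACAATGG of SOX factors, had ratios from 0.896 to 1.09. The remaining 13 of 23 motifs (STAT, YY1, CRE, the ATF-C/EBP composite, CTCF, MEF2, SRF, TCF/LEF, NF-kB, steroid receptor, NFI, C/EBP and NRF1) were found in fewer than 10 members each. At least 1 of TEAD, CAGCTG and RUNX occurred in 189 members, 23.6%.

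**Figure D1:**
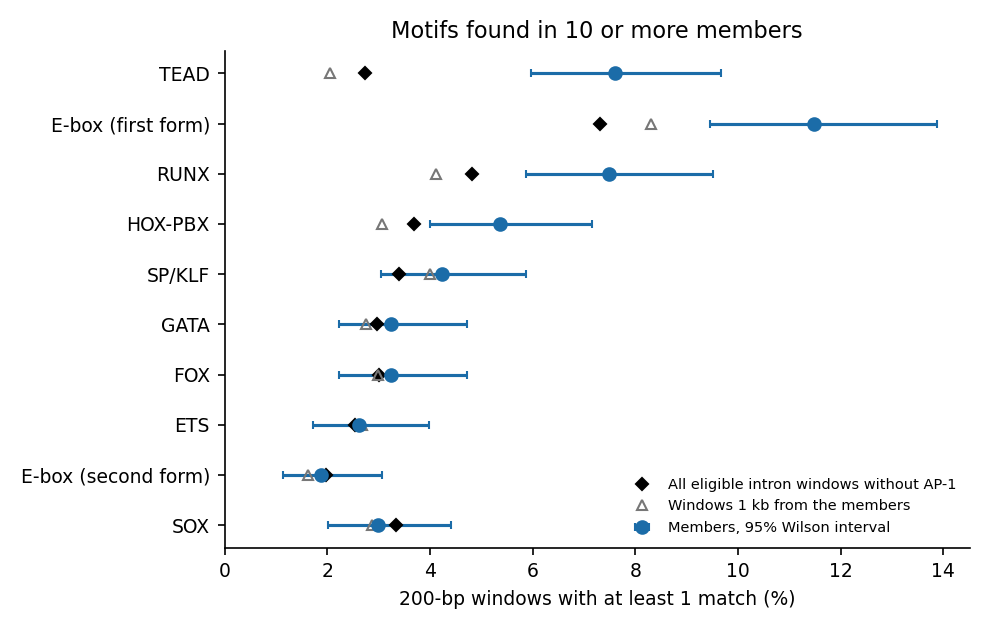
Share of 200-bp windows with at least 1 match on either strand (percent) for the 10 motifs found in 10 or more members, with 95% Wilson intervals for the 801 members, beside all eligible intron windows without AP-1 and the windows 1 kb from the members. The E-box forms are CAGCTG (first) and CACGTG (second). For TEAD the members lie at 7.62% and the eligible windows at 2.73%.

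The difference from the other classes of sites passed the test for none of the 23 motifs. TEAD was found in 7.44% of the intergenic sites, a difference of 0.17 percentage points (95% interval -2.47 to 2.80), and in 7.08% of the intronic AP-1 sites, a difference of 0.54 points (-5.95 to 4.55). RUNX was found in 7.49% of members and in 11.5% of the intronic AP-1 sites, a difference of -4.01 points (-11.4 to 1.07). Of the 23 motifs, 0 (0%) passed an adjusted p of 0.05 by Fisher's exact test against either class, and 0 passed unadjusted. The smallest unadjusted p against the intronic AP-1 sites was 0.0613, for the SOX motif, found in 24 members and in 0 AP-1 sites, which by the limit of 3 counts of 113 allows a share of up to 2.65%. Against the intergenic sites it was 0.163, for GATA.

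TEAD matches were more frequent in the members than in the sequence around them. In bins of 100 bp the motif was found in 4.00% of members on average at the centre and in 1.44% between 1 and 2 kb away. Within the central window the matches lay at a median of 46 bp from the centre, near the 50 bp of an even spread, and 4 members had at least 2 matches. By width, the TEAD motif was found in 12 of the 281 members at the minimum width of 200 bp (4.27%). It was found in 36 of the 338 of over 200 and under 350 bp (10.7%). From 350 to below 380 bp it was found in 7 of 147 (4.76%), and in 6 of the 35 that were wider (17.1%). These groups were formed after the widths were seen and had no test. TEAD overlapped with the other motifs in 10 members each for CAGCTG and RUNX. Members with all 3 motifs lay in introns of Pak1, a kinase that acts downstream of RAC and CDC42, of Anxa2, a calcium-dependent membrane-binding protein, and of the non-coding gene Gm28494, and were named after their values were seen. Other TEAD members lay in Mecom, which held 2, and in Csf1, the macrophage growth factor, Wwc2, Bmper, Creb3l2, Utrn and Prkca, also named after their values were seen.

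Words that differ from the AP-1 consensus by 1 base were found in 452 members, 56.4% (53.0 to 59.8), against 43.3% of eligible windows, a ratio of 1.30. The full consensus occurred outside the central 200 bp, but within the site, in 17 members. When all 6-base words found in at least 20 members were ranked by the ratio of members to eligible windows, the first was ACCGCA, read TGCGGT on the other strand. It occurred in 29 members, 3.62%, against 1.04%, a ratio of 3.48. RUNX proteins are also known to bind TGCGGT. The 6-base words ranked 2 to 5 also held a CpG, with ratios from 2.51 to 2.87. These words were chosen for their ratios and carry no test, and whether they come from motifs or from repeats was not tested.

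CpG dinucleotides were present in the central window of 638 members, 79.7%, against 70.2% of eligible windows. The intronic AP-1 sites held a CpG more often, 102 of 113, 90.3%, a difference of -10.6 points for the members (-15.7 to -3.26, adjusted p = 0.0407, Fisher's exact test). This call was lost in 5 of the alternative settings, and repeat content moved with it, 22.9% of the central bases in members against 13.9% in the AP-1 sites. The part of repeats in the difference was not tested. Against the intergenic sites, of which 76.5% held a CpG, the difference was 3.15 points (-0.95 to 7.25, adjusted p = 0.285). Mean GC content was 45.1% ± 5.41 (SD, 801 members), 44.5% ± 5.74 in intergenic sites and 46.6% ± 4.29 in AP-1 sites, against 41.7% in eligible windows. The share above the pooled median GC was 43.6% of members and 54.9% of AP-1 sites, a difference of -11.3 points (-20.8 to -1.48, adjusted p = 0.0789).

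Of the 6 features compared with the AP-1 class 1 (16.7%) passed, and of the 4 compared with the intergenic class 1 (25%) passed. The latter was the presence of a second site nearby. Another site of the list lay within 10 kb of 109 members, 13.6%, and of 48 intergenic sites, 6.27%, a difference of 7.34 points (4.40 to 10.3, adjusted p = 5.1e-06). Sites near each other count for each other, and Fisher's exact test and the interval treat them as independent, which they are not. By the same test the difference was 3.80 points (adjusted p = 0.0294) with a TSS limit of 5 kb. With sites within 1 kb joined it was 4.52 points (adjusted p = 0.00114). With a TSS limit of 1 kb the difference was 14.9 points. TSS distance moved with it, since the median distance was 12893 bp in members and 20837 bp in intergenic sites. Among sites 3 to 10 kb from a TSS the shares were 23.4% of 320 members and 13.0% of 185 intergenic sites, from 10 to 30 kb 6.46% and 6.03%, from 30 to 100 kb 9.32% and 2.45%, and beyond 100 kb 0 of 26 and 1 of 54 sites. With only neighbours that were themselves farther than 3 kb from every TSS, which was added once the positions had been seen, the shares were 8.49% and 4.83%, a difference of 3.66 points (1.19 to 6.16, adjusted p = 0.0179). Intronic AP-1 sites had a neighbour in 14.2%, a difference of -0.55 points (-8.47 to 5.29, adjusted p = 0.884).

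Of the 109 members, 55 had another member within 10 kb, 53 a promoter site, centred within 1 kb of a TSS, 8 an intronic AP-1 site and 51 a site of none of these classes, and a member could have neighbours of several classes. Members within 10 kb of each other formed 22 groups, 6 of them with 3 or more members, which were chosen after their positions were seen. The largest held 5 members in 5.07 kb of intron 7 of Zfhx3, a large zinc-finger homeobox transcription factor. In Lrba, which encodes a protein of vesicle transport, 4 members fell in 1.98 kb of intron 53 of 56. In Mllt3, which encodes a subunit of the super elongation complex, 4 members fell in 3.46 kb of intron 2. In Foxp1, a forkhead transcription factor, 4 members fell in 5.54 kb of intron 6. Phlpp1, a phosphatase that acts on AKT, held 3 in 1.83 kb of intron 1, and Tcf7l2, the Wnt effector that binds beta-catenin, held 3 in 3.93 kb of intron 3. No site of another class lay between the members of these 6 groups. With sites within 1 kb joined before the rule was applied, 765 members remained in place of 801.

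**Figure D2:**
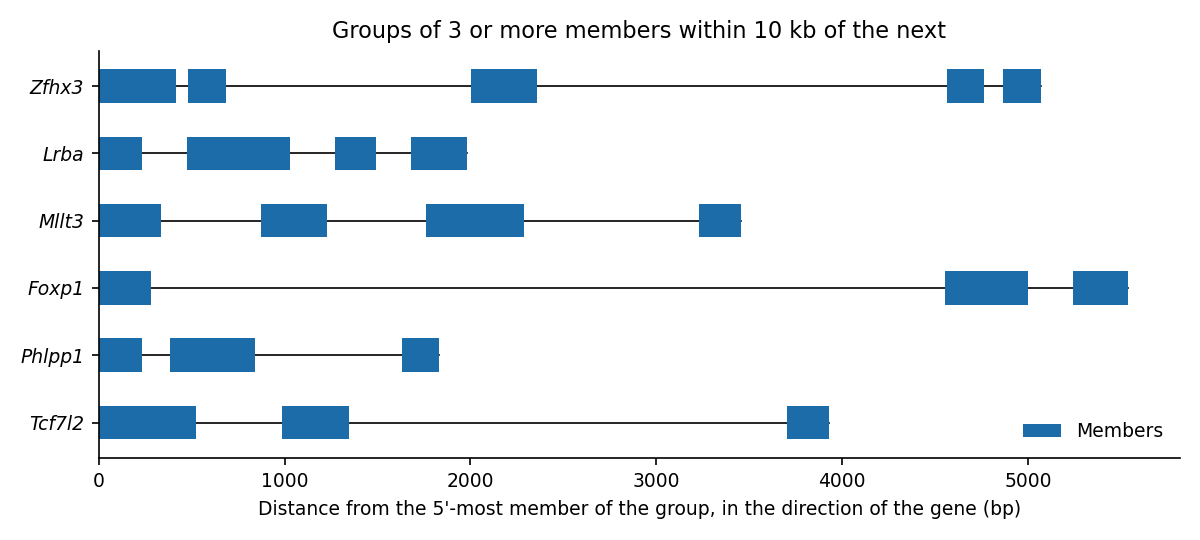
Positions of the members (blue bars, to scale) in the 6 groups of 3 or more members, each within 10 kb of the next, as distance in bp from the member at the 5′ end in the direction of the gene. The groups span 1832 bp (Phlpp1) to 5540 bp (Foxp1), and a pair of the Foxp1 members is 1 bp apart, so that it looks like a single bar.

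The members lay in 608 of 15115 protein-coding genes with eligible intron (4.02%), and 72 genes (0.476%) held 2 or more. Of the 801 members 699 were in protein-coding genes and 68 in lincRNA genes. The genes with the most members were Zfhx3 with 8 (9.05 per Mb of its eligible intron), Tcf7l2 with 5 (32.2 per Mb), Foxp1 with 5 (10.3 per Mb), Mllt3 with 4 (17.0 per Mb) and Lrba with 4 (8.28 per Mb), against 0.982 per Mb over all protein-coding genes. Mecom, a zinc-finger regulator with a PR domain, also held 4 (7.96 per Mb). Outside its group, Zfhx3 had members of 380 and 332 bp in introns 1 and 2, the second of them 200.2 kb from a TSS, and 1 of 200 bp in intron 5. Tcf7l2 had further members in introns 3 and 4, the latter with a TEAD motif and an E-box CAGCTG. Zfhx3, Tcf7l2, Foxp1, Lrba and Mecom also had a site at a promoter and Mllt3 did not.

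Genes of mesenchymal and limb transcription factors held members in 14 of 49 genes with eligible intron (28.6%), at 3.26 per Mb (exact 95% Poisson interval 2.27 to 4.53, counting error only). Beside Zfhx3, Foxp1 and Mecom these were Rora and Sox5 with 3 members each, Tcf4, Ebf3 and Bnc2 with 2, and Twist2, Runx1, Ebf1, Nfib and 2 others with 1. Rora is a nuclear receptor, Sox5 an HMG-box factor of cartilage, and Ebf1 and Ebf3 are helix-loop-helix factors of mesenchyme. The genes of this list averaged 219 kb of eligible intron, against 47.8 kb over all protein-coding genes. Of all genes with 100 to 300 kb, 16.9% held a member. Zfhx3, Foxp1 and Mecom held 8, 5 and 4 of the 35 members, partly in groups, which the interval counts as independent. The gene lists were chosen with earlier results of these data known. With sites within 1 kb joined the density of this list was 2.23 per Mb. Genes of the YAP, TAZ and TEAD pathway held members in 5 of 27 (18.5%), at 4.54 per Mb (1.83 to 9.36). These were the coactivators Yap1 and Wwtr1 (TAZ), the kinase Lats2, and Wwc2 and the atypical cadherin Fat1 with 2 each. A member of Wwc2 held the TEAD motif.

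Wnt pathway genes held members in 4 of 39 (10.3%), at 2.79 per Mb (1.21 to 5.51), with 5 of the 8 members in Tcf7l2 and 1 each in the co-receptor Lrp6, in Prickle2 and in Daam2. TGF-beta and BMP pathway genes held them in 3 of 35 (8.57%), at 2.11 per Mb (0.686 to 4.93), namely Tgfbr3, the co-receptor betaglycan, with 3, and Bmpr1a and Ltbp1 with 1. Actin cytoskeleton and adhesion genes held them in 11 of 63 (17.5%), at 1.58 per Mb (0.903 to 2.57), with 3 each in Macf1, which links microtubules to actin, and in Cdh13. Extracellular matrix genes held them in 8 of 63 (12.7%), at 1.36 per Mb (0.620 to 2.57). Thbs1, which encodes thrombospondin 1, had 2 members in the 0.00383 Mb of eligible intron of its small gene, with an intronic AP-1 site between them.

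The share of genes with a member and the density per Mb did not rank the lists alike. Long synaptic adhesion and channel genes, with 1007 kb of eligible intron per gene on average, held members in 14 of 46 (30.4%), and at 0.389 per Mb (0.230 to 0.614) the lowest density. Among them Cntnap5a had 3 members, Lsamp and Ntm 2 each. Of all genes with over 300 kb of eligible intron, 30.5% held a member, and of those with 100 to 300 kb 16.9%. Genes with over 300 kb held members at 0.724 per Mb (0.621 to 0.838) and those with 100 to 300 kb at 1.23 (1.08 to 1.39). Chromatin regulator genes held members in 3 of 61 (4.92%), at 0.816 per Mb (0.222 to 2.09), namely Arid1b with 2, and Smarcc1 and Baz2b, all of chromatin remodelling complexes. Of the fibroblast marker genes 7 had eligible intron and 1, Pdgfra, held a member, while 5 of the 10, among them Col1a1 and Vim, had a site at a promoter. Of the 15115 protein-coding genes with eligible intron, 2414 had a promoter site. Without the 281 members of minimum width the density was 0.753 per Mb in matrix genes, 0.988 in actin genes and 0.237 in synaptic genes, beside 0.632 for the 520 members left over all eligible intron. The lists had no test, and their intervals for TGF-beta, actin, matrix and chromatin genes included the density of all genes.

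**Figure D3:**
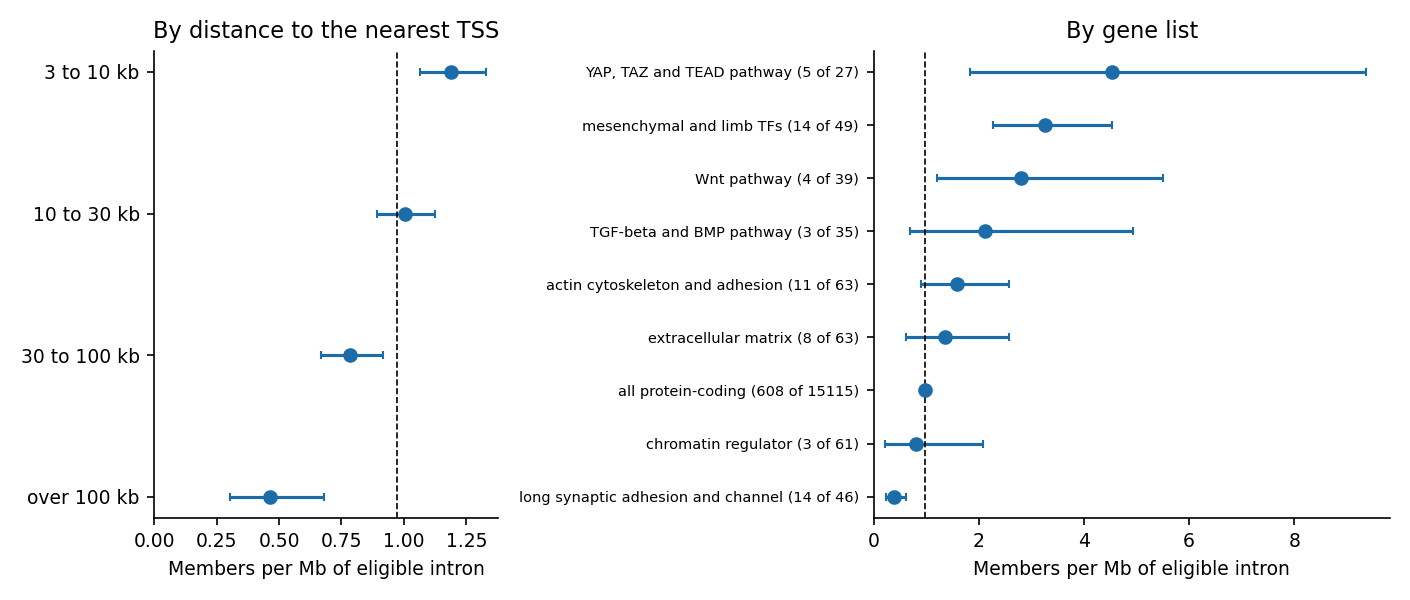
Members per Mb of eligible intron with exact 95% Poisson intervals, by distance to the nearest TSS (left) and by gene list (right, with genes holding a member of genes with eligible intron in brackets). The dashed line is 0.974 per Mb over all eligible intron. The density runs from 1.19 at 3 to 10 kb to 0.465 beyond 100 kb, and the synaptic list is the lowest at 0.389.

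Within the distal range the density of members was higher nearer to a TSS. The density was 1.19 per Mb (1.06 to 1.33) from 3 to 10 kb from the nearest TSS, 1.00 (0.892 to 1.12) from 10 to 30 kb, 0.785 (0.669 to 0.917) from 30 to 100 kb and 0.465 (0.304 to 0.682) beyond 100 kb. The members farthest from a TSS lay in Dcc (chr18:71643343-71643586, 707.6 kb), Gpc5 (chr14:116339657-116339856, 410.5 kb) and Lsamp (chr16:40785464-40785663, 281.0 kb), all 3 in genes without a promoter site. First introns held 1.19 per Mb (1.03 to 1.36) and later introns 0.925 (0.844 to 1.01). Genes with a site at a promoter held 1.51 members per Mb (1.30 to 1.74) and those without one 0.876 (0.803 to 0.955). In all, 187 members (23.3%) lay in a gene with a promoter site, against 27.4% of the intronic AP-1 sites, a difference of -4.09 points (-13.4 to 3.90, adjusted p = 0.581). First introns held 31.1% of members and 35.4% of AP-1 sites, a difference of -4.31 points (-14.0 to 4.53, adjusted p = 0.581). By chromosome the density ran from 0.670 per Mb on chromosome 14 to 1.23 on chromosome 18, apart from chromosome Y with 0 members in 4.26 Mb, which allows up to 0.867 per Mb.

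The widths of the members fell into a main and a second mode. The median was 227 bp, with quartiles of 200 and 335 bp, and 281 members (35.1%) had the minimum width of 200 bp, against 35.5% of intergenic sites (difference -0.43 points, -5.15 to 4.29, adjusted p = 0.874) and 31.9% of intronic AP-1 sites (3.22 points, -6.40 to 11.8, adjusted p = 0.634). From 350 to below 380 bp there were 147 members (18.4%, 15.8 to 21.2), 85 of them between 360 and 369 bp, while the 30 bp below that range held 31 and the 30 bp above it 10. These bounds were set after the widths were seen. The range held 18.9% of the intergenic sites, 11.5% of the intronic AP-1 sites and 7.17% of the 3154 promoter sites, and 7 of the 150 sites (4.67%) that met the rule in the coordinates left out. The widest members were 1394 bp in Gm20388, an annotated gene of 4435 kb that overlaps others, 1024 bp in Eya4, 683 bp in Arid1b, 593 bp in Runx1t1 and 566 bp in Rere. All 5 were in first introns of genes with a promoter site, and the first 4 lay 3305 to 3750 bp from a TSS. The Gm20388 member lay 3361 bp from a TSS but 1208.69 kb from the start of Gm20388, so that TSS is not the start of this gene.

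**Figure D4:**
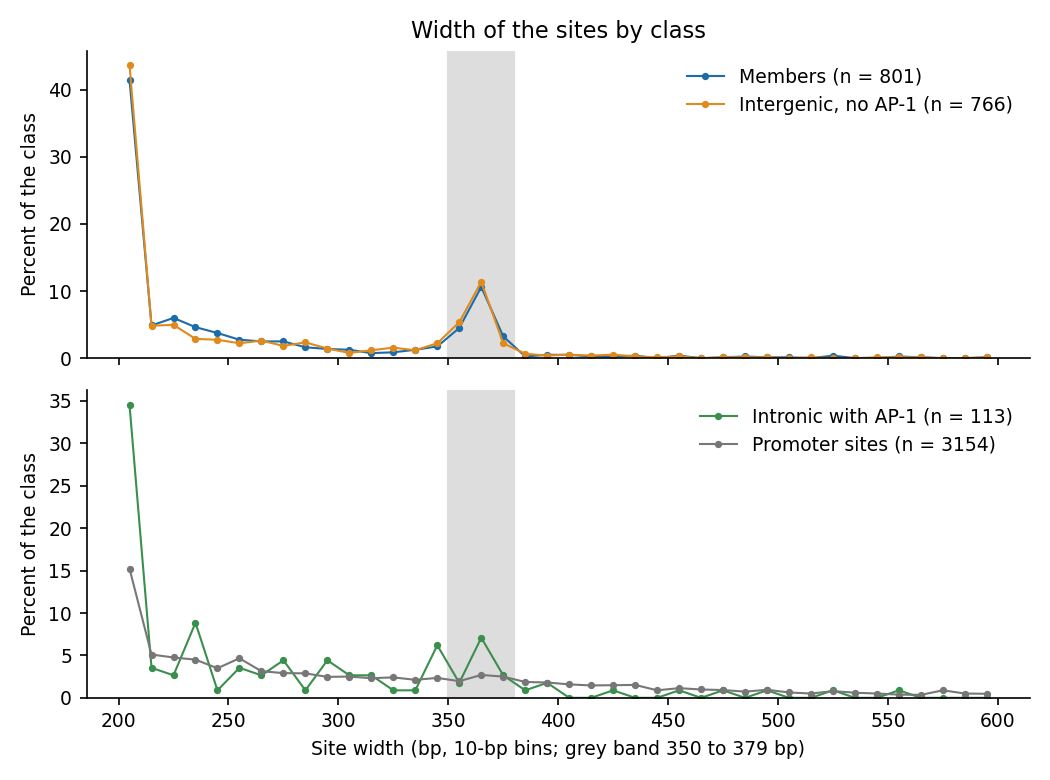
Percent of the sites of each class in 10-bp bins of width (bp), for members and intergenic sites without AP-1 (upper) and for intronic AP-1 and promoter sites (lower). The grey band marks the range from 350 to below 380 bp, which holds 18.4% of members, 18.9% of intergenic sites, 11.5% of intronic AP-1 sites and 7.17% of promoter sites.

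Members of the second mode differed from the others in the sequence at their centre. The centre was soft-masked as repeat in 125 of 147 (85.0%), against 53 of the 281 (18.9%) at 200 bp and 54 of the 338 (16.0%) between the modes, while 31.0% of eligible windows were masked there. In the second mode the masked share was 42.7% in the central 200 bp and 29.7% from 1 to 2 kb away. At other widths it was lower at the centre, 18.4%, than away from the site, 25.2%. GC content was 45.5% at the centre of the members of other widths and 43.0% away from it, and 43.1% and 42.9% in the second mode. Of the second-mode members, 11 (7.48%) had another site within 10 kb, against 9.96% at 200 bp, 15.4% between the modes and 51.4% of the 35 wider members. These are descriptions of groups formed by width after it was seen, with no test.

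All 12-base words of the central windows were then counted. Of 191 words found in at least 8 members, 82 were at least 10 times as frequent in members as in eligible windows, with ratios from 13.8 to 271 and a median of 51.3. Both limits were set after the words were seen. At least 1 of the 82 was present in the centre of 152 members (19.0%), on 19 chromosomes, and 80 of those 152 were in the second mode. The Lsamp member, far from any TSS, held one as well.

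The 82 words were chosen on the members, so their share there is a description. In the other classes they were found in 104 intergenic sites (13.6%), 58 of those in the second mode, in 10 intronic AP-1 sites (8.85%), in 48 promoter sites (1.52%) and in 5 of the 150 sites in the coordinates left out. The most frequent of them belong to the consensus of Alu, a repeat of primates whose rodent relative is B1. Whether the reads at these sites came from the mouse sequence they are placed on was not tested, since no reads were analysed here. Results are therefore also given without the members that hold a word. This leaves in 67 members of the second mode, 46 of them soft-masked at the centre. Of the 152 members with a word, 3 held the TEAD motif (1.97%), 8 had a neighbour within 10 kb (5.26%) and 24 lay in a gene with a promoter site (15.8%), while 16 held CAGCTG and 108 a CpG (71.1%). Among the 649 members without a word, TEAD was found in 58, 8.94%, a ratio of 3.27 to eligible windows, CAGCTG in 11.7% (1.60) and RUNX in 8.32% (1.73). The word ACCGCA stayed first among 6-base words in those members, in 26 of them at a ratio of 3.85.

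**Figure D5:**
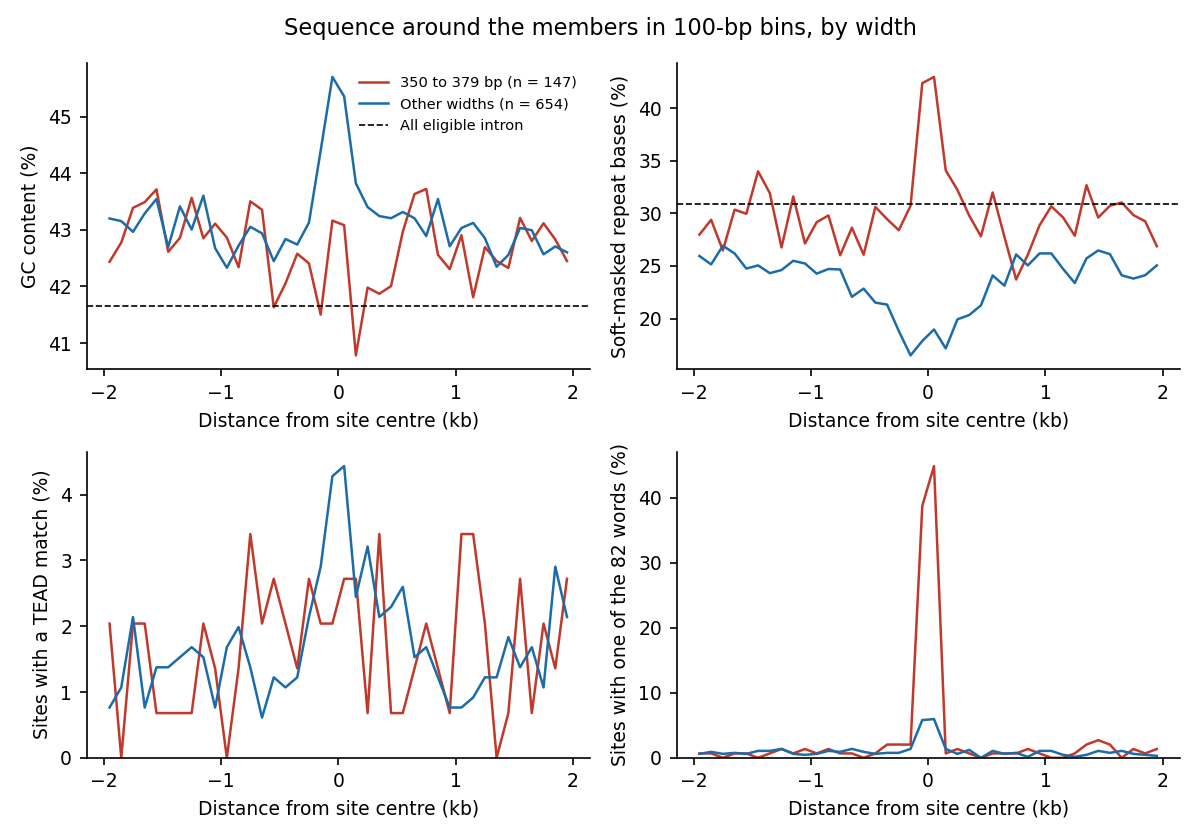
GC content, soft-masked repeat bases, members with a TEAD match and members with one of the 82 words (all in percent) in 100-bp bins from 2 kb before to 2 kb after the centre (kb), for the 147 members from 350 to below 380 bp and the 654 of other widths. Dashed lines give the mean of all eligible intron (41.7% GC, 30.9% masked). Masking peaks at the centre in the second mode and dips in the other members, which hold the GC and TEAD peaks.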

How the data were processed

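ASH2L ChIP and input libraries of mouse fibroblasts without dTAG and after 1 h of dTAG (8 libraries, 2 per group) gave the peak list. Per the study's methods and the labels, the authors used Trim Galore for trimming and BWA for alignment to mm10 (GRCm38.p6), filtered reads with SAMtools, merged replicates with Picard, called narrow peaks with MACS2 and compared conditions with DESeq2. Versions are not given in the sources used here. The deposited table analysed here holds other values only, namely the chromosome, start and end of 6444 sites, with no counts or scores. Depth and replicate error are therefore unknown, the planned comparison of dTAG with untreated cells could not be made from it, and intervals cover counting error only. Whether peaks were called before or after the merge is not given in the sources used here, and the table does not show in how many libraries a site was present. A further table of sites changed after dTAG that the study names was not analysed here.

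Sites were annotated with GENCODE release 21 and the RefSeq sequence of GRCm38.p6, whose soft-masking gave the repeats. Islands were computed with at least 200 bp, GC over 50% and observed to expected CpG over 0.6. The centre is the central 200 bp. Eligible intron is all intron that meets the rule, tiled in windows of 200 bp. Shares were compared by two-sided Fisher's exact tests with Benjamini-Hochberg adjustment within each comparison (threshold 0.05), with Newcombe intervals of differences, Wilson intervals of shares and exact Poisson intervals of densities (Python 3.11.15, NumPy 2.4.6, SciPy 1.17.1). Scripts were tested on simulated sites. Named genes were the 5 hosts with the most members, the 5 widest and 3 farthest members, and listed genes with 2 or more members plus up to 4 with 1. Printed sequences were those with the match nearest the centre. The rule, members and gene lists were chosen with earlier results of these data known. Alternatives changed the TSS distance or set, introns, islands, AP-1 window, motif window, widths, joining of sites and coordinates left out. A gene list and some sequences are not reported here.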

Additional observations from a re-analysis of the deposited data

How the results depend on the processing

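The members numbered 678 to 1080 over 8 alternative forms of the rule. Of 112 alternative values with a test, 96 kept their direction and their side of the threshold, counting the numbers of motifs called, which stayed at 0. Of the 98 that are counts or densities with no test, 95 stayed within 1.5 times the reported count or within its counting interval. The lower share of members with a CpG than of intronic AP-1 sites lost its call at 5 kb from a TSS (-9.61 points, adjusted p = 0.128), without sites of the minimum width (-9.52, 0.157), with the left-out coordinates kept (-7.09, 0.277), and, in settings added after seeing the data, without widths of 350 to below 380 bp (-10.1, 0.0688) or without sites holding a 12-base word (-9.60, 0.0759). Against intergenic sites the CpG difference passed at 1 kb (5.01, 0.0153). The lower share above the median GC than in AP-1 sites passed at 1 kb (-11.6, 0.0402), with TSSs of protein-coding genes only (-12.9, 0.0344) and with stricter islands (-11.9, 0.0457). Differences that never passed changed sign, for neighbours against AP-1 sites at 1 kb (6.69), with protein-coding TSSs (1.89), without widths of 350 to below 380 bp (0.98) and without word sites (1.00), for promoter sites in the host gene at 1 kb (0.13), for minimum width against intergenic sites with protein-coding TSSs (0.31) and for GC against intergenic sites without widths of 350 to below 380 bp (-0.76). Transcription factor genes held 2.23 members per Mb with sites within 1 kb joined, and without minimum-width sites, which leaves 520 of the 801 members, 5 matrix genes and 9 synaptic genes held a member, at 0.753 and 0.237 per Mb, and actin genes held 0.988 per Mb, against 0.632 over all eligible intron. The cause of these shifts was not tested. The neighbour difference from intergenic sites kept its call in all 10 alternatives, from 3.66 points with distal neighbours only to 14.9 at 1 kb, and no motif passed in any of 11 (lowest adjusted p = 0.447 against intergenic and 0.532 against AP-1 sites). No paired analysis was possible because the table has no column per library. A stricter peak threshold and the dTAG comparison with replicates as a block were not run, since the table has no scores or values.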
